A study of Mus musculus with 10 samples.

Results

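The regions described here are the last counting bins of expressed genes in mouse cerebral cortex. A counting bin is a piece of the exons of a gene cut wherever annotated exon edges differ between its transcripts. The last bin is the 3′-most piece of the gene on its own strand. It was taken for each gene with at least 5 bins and kept where its mean count over the 10 libraries was at least 10, which left 7428 last bins of 21540 genes with at least 5 bins, out of 458337 bins of 51612 genes in all. The mean count chose the members. The lowest members had a mean of 10 (*Egfl6*, *Oas1c*, *Myg1*, *Ptgfr* and *Crmp1*), and last bins at 9.9, such as those of *Lmx1b* and *Vstm2b*, were left out. Of the 12173 such genes with a mean gene count of at least 100, 6844 had a last bin among the members, so a gene can be abundant and still lack counts in its most distal annotated piece.

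The libraries were made from total RNA of cortices of mice at postnatal day 18, depleted of ribosomal RNA and primed with random hexamers, so that reads cover whole transcripts and do not mark cleavage sites. There were 5 libraries of Usp7 cKO; Trp53+/- mice and 5 of Usp7 WT; Trp53+/- mice, each from a separate animal, and every animal, control or mutant, was heterozygous for Trp53. In the mutants, floxed Usp7 (Usp7 fl/fl) was removed by NEX-cre, which acts in glutamatergic neurons and leaves Usp7 in the other cells of the cortex. Usp7 encodes a deubiquitinase, and its level fell from 53.9 ± 5.32 to 36.9 ± 3.96 TPM (SD, n = 5 each; log2 change -0.54 ± 0.077 SE, adjusted p = 0.0013, limma). The pairs were matched by litter and sex, per the labels, which do not name the pairs, and the question asked of these bins was whether the choice of transcript end differed between the genotypes.

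Bin counts summed to 42628526 to 51797145 per library. The sex transcripts of 2 libraries, Usp7 WT replicate 2 and Usp7 cKO replicate 1, went against their labelled sex. The library identifiers run in genotype order, so library order and genotype cannot be told apart. By limma on TPM, which called 13.9% of all genes, all 6 glutamatergic neuron markers fell (summed TPM between 3149 and 3502 in the controls, between 2255 and 2725 in the mutants), as did all 6 microglia markers (253 to 279 against 171 to 199 TPM). The call of *Neurod2* was lost in 11 and that of *Camk2a* in 5 of 14 alternatives, and *Neurod6*, with the largest fall of the 6 (log2 -1.10), is the locus that carries NEX-cre. Of the GABAergic neuron markers 1 of 6 fell (*Pvalb*, lost in 10 of 14 alternatives), and of the astrocyte markers 1 of 5 rose (*Gfap*, lost in 4 of 14), while oligodendrocyte (5) and endothelial (3) markers had no call; none of these markers was at 0. In whole tissue, fewer cells of a type and less RNA per cell cannot be told apart, and the part of these shifts in the results below was not tested.

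Transcripts of a gene can end at different places. In tandem sites the same terminal exon is cleaved early or late, which shortens or lengthens the 3′ untranslated region, and in alternative terminal exons splicing decides which exon holds the end. The cleavage machinery reads a hexamer, usually AATAAA or ATTAAA, a short distance upstream of the cut, and U1 snRNP and RNA-binding proteins such as the ELAVL and NOVA families change which site is used. Neurons of the mammalian brain are known for long 3′ untranslated regions.

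The members were divided by how the last bin meets the bin upstream of it, and alternative terminal exons were not counted. In 4337 of them the last bin abuts an upstream bin that closes at an annotated transcript end, as in tandem ends. That end can belong to a transcript of any type, coding or not. Another 140 abut at some other boundary, and 2951 stand alone. A bin that stands alone can lie in an alternative terminal exon or in the only terminal exon of its gene. The median width was 1306 bases (10th to 90th percentile, 272 to 3819), and 3058 members overlapped coding sequence. In 7361 members the 3′ edge was an annotated transcript end in GENCODE M21, and AATAAA lay in the last 50 bases of 64.1% of these ends and ATTAAA without AATAAA in 14.6%, on the transcript strand; over all 21300 genes with such an end the shares were 57.4% and 13.1%. The last bin held a median of 13.3% of the counts of its gene (interquartile range 5.10 to 27.7%). Bins that stand alone held a median of 19.8%, against 9.80% for bins beyond an annotated end.

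The ends below belong to members that changed in use, as described further on. They are the last 30 bases of GENCODE M21 transcripts (GRCm38), 5′ to 3′ on the transcript strand, with AATAAA or ATTAAA in capitals. The distal end closes the last bin, and the proximal end closes the upstream bin that it abuts.
Dlg4 distal, chr11:70047493-70047522, plus strand: actgcttttaATTAAAaaaaATTAAAttca
Dlg4 proximal, chr11:70045503-70045532, plus strand: agagtgaaaggaagagacagacacttgaaa
Luc7l3 distal, chr11:94287890-94287919, minus strand: tAATAAAaaaattttttttaagtgggaaaa
Luc7l3 proximal, chr11:94291061-94291090, minus strand: taaagtgacgactccaactactctcttgtt
Acbd6 distal, chr1:155691301-155691330, plus strand: tcAATAAAtctcaaatcccagttcctacgg
Dap3 distal, chr3:88920803-88920832, minus strand: ctgtttcaaaAATAAAattatatgtgtgtg
Dap3 proximal, chr3:88923635-88923664, minus strand: gtttttacATTAAAgtagatctgctcctga
Cfl1 distal, chr19:5495172-5495201, plus strand: taAATAAATAAAtgAATAAATAAAactttt
Cfl1 proximal, chr19:5494000-5494029, plus strand: aacaaaaaaacAATAAAaaggctaattaac
Wwox distal, chr8:115352679-115352708, plus strand: tcctatgcttAATAAAagaacatgcttaac
Dido1 distal, chr2:180657964-180657993, minus strand: acttgaagtagAATAAAtatctacagagtt
Dido1 inner end, chr2:180681073-180681102, minus strand: attgtcatttttaaaatttccaaagattct
Mrps17 distal, chr5:129722527-129722556, plus strand: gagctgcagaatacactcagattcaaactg
Neither hexamer lay in these 30 bases of the Dlg4 and Luc7l3 proximal, Dido1 inner and Mrps17 distal ends, which says only that these letters are not in this window. In the last 50 bases of the Luc7l3 proximal end AATAAA occurred 1 time. Proximal ends not shown are those of Acbd6 (a nonsense-mediated decay transcript), Wwox (a processed transcript) and Mrps17 (protein coding). None of these had either hexamer in the last 50 bases. Among the called members with an annotated end, AATAAA lay in the last 50 bases of 17 of 28 used more and of 4 of 10 used less, beside 64.2% of the 7035 tested members with such an end.

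Use of each bin was tested as its change relative to its gene (edgeR's quasi-likelihood exon test, with the labelled sex as covariate, adjusted over all 228098 bins tested). The change is given as a relative log2, bin minus gene, Usp7 cKO minus Usp7 WT; the gene total includes the bin, so the value understates the change of bins that hold much of their gene. Of the members, 7100 could be tested, and 328 had no other bin of their gene above the filter. At an adjusted p under 0.05, 30 were used more and 10 less in Usp7 cKO, which is 0.563% of those tested beside 0.43% of all bins (0.331% more and 0.0986% less). The share called was near that of bins at large, and in both more bins were used more than less. Of the 30 used more, *Yjefn3*, *Kremen2*, *Ramp2* and *Zfp697* had a mean count under 10 in Usp7 WT and are members only through Usp7 cKO; none of the 10 used less had so low a mean in either genotype. These counts moved with single choices. Members used more numbered 17 without Usp7 WT replicate 1 and 19 and 18 without Usp7 cKO replicates 2 and 5. They numbered 17 without the 2 libraries at odds with their labelled sex, 18 with Xist as covariate and 19 at a minimum mean count of 50. Members used less numbered 5 with Xist, at that minimum, or without Usp7 cKO replicate 4 or 5, and 18 by limma on the ratio of the last bin to the rest of the gene. First bins of genes, chosen by the same rule at the 5′ end, had 26 used more and 13 less of 4708 (0.828%), a larger share than that of the members. The difference was not tested. At an unadjusted p under 0.05 stood 5.65% of the members and 4.92% of all bins.

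**Figure D1:**
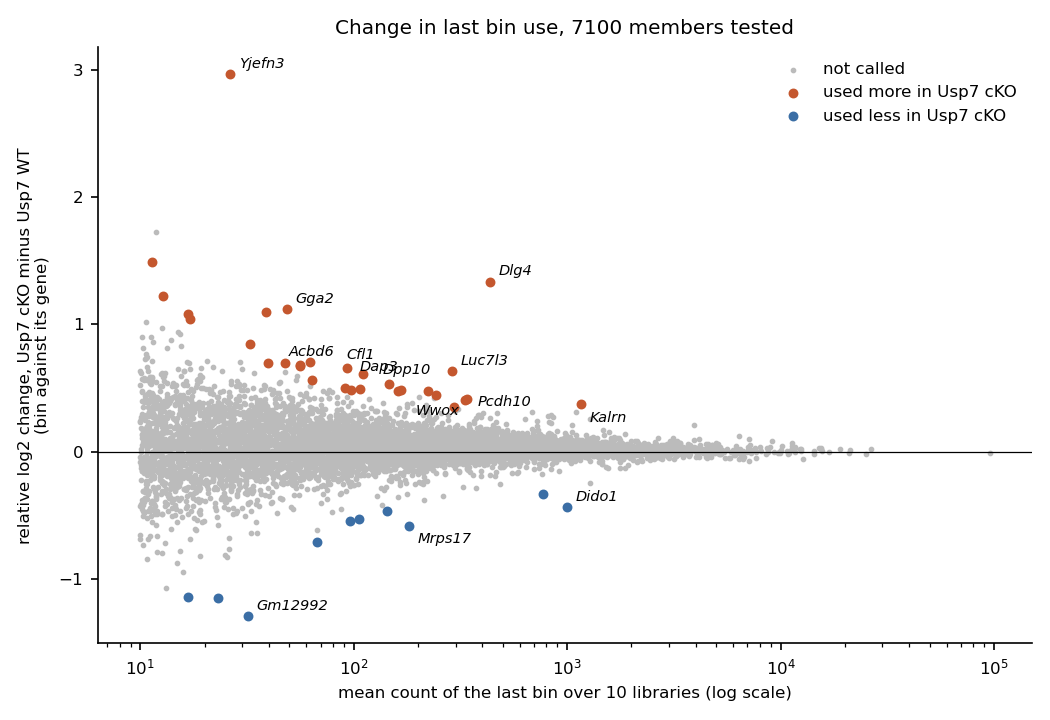
Relative log2 change of the 7100 tested last bins (vertical axis, Usp7 cKO minus Usp7 WT, bin against its gene) by their mean count over the 10 libraries (horizontal axis, log scale). Each point is 1 gene; the 30 bins used more and the 10 used less at an adjusted p under 0.05 are coloured, and *Yjefn3* (2.97), with few control reads, and *Dlg4* (1.34) are among the labelled points.

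Most last bins changed little. The relative log2 was within 0.2 of 0 in 81.6% of the members, with a median of 0.03 beside 0.00 for all bins (63.2% above 0, against 49.8%). Leaving out a library moved the median between 0.01 and 0.04 and the share above 0 between 57.0 and 67.3%; both were lowest without Usp7 cKO replicate 1, and the median was highest without Usp7 cKO replicate 5 and the share without Usp7 WT replicate 5. Over libraries the shift did not exceed the spread. Summed over all members, last bins took 12.1, 12.7, 12.8, 12.7 and 12.9% of their genes' counts in Usp7 WT replicates 1 to 5 and 13.5, 13.0, 12.1, 12.7 and 12.2% in Usp7 cKO replicates 1 to 5. The groups overlapped, and the difference of 0.0614 percentage points had an exact two-sided permutation p of 0.817 (smallest possible p 0.00794); without Usp7 WT replicate 1, Usp7 cKO replicate 1 or Usp7 cKO replicate 2 its sign turned (-0.0666, -0.128 and -0.0167). The median member's share was 13.2 ± 0.247% in Usp7 WT and 13.5 ± 0.447% in Usp7 cKO (SD, n = 5 each; exact permutation p = 0.27).

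**Figure D2:**
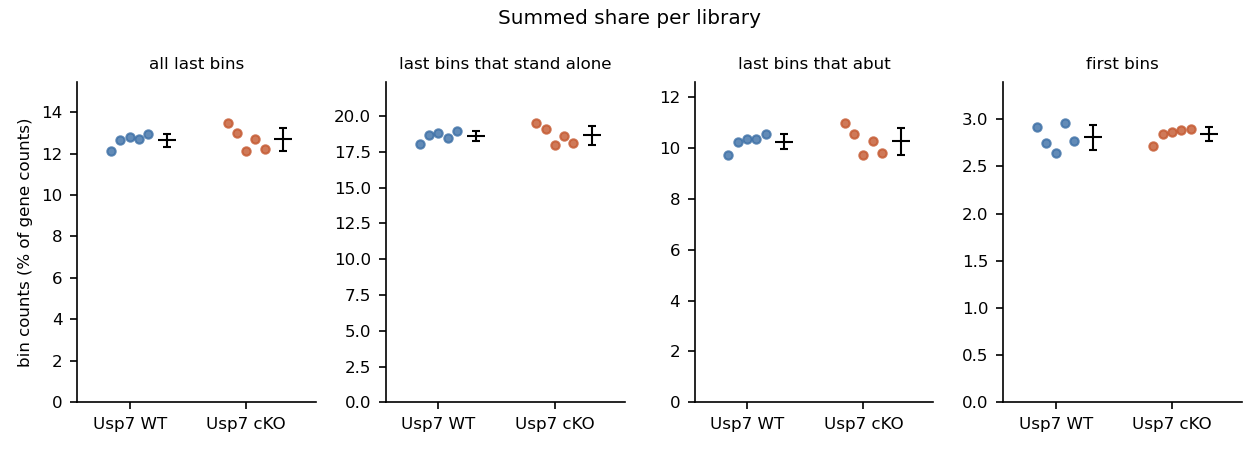
Counts in the last bins as a percent of all counts of their genes (vertical axes, from 0), by library, for all members, for members that stand alone or abut another bin, and for first bins. Points are libraries, 5 in each genotype, and the bars give the mean and SD; in each panel the Usp7 WT and Usp7 cKO points overlap.

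The share of calls by structure is given as a description. Among members beyond an annotated end, 21 were used more and 7 less of 4225 tested (0.663%), among those that stand alone 8 more and 3 less of 2737 (0.402%), and at other boundaries 1 more of 138 (0.725%). Members free of coding sequence had 33 calls among 4205 (0.785%) and members over coding sequence 7 among 2895 (0.242%), around the 0.43% of all bins. A division made after the values were seen compared the level per base of an abutting last bin with that of its upstream bin. Where it was under 0.1 of the upstream level, 9 bins were used more and 3 less of 602 (1.99%); between 0.1 and 0.5 there were 8 and 2 of 2125 (0.471%), and above that 5 and 2 of 1636 (0.428%). No difference between any of these classes was tested.

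The smallest adjusted p was that of *Dlg4*, which encodes PSD-95, the main scaffold of the excitatory postsynapse. Its share is under 1%, so the naming rule did not take it and it is named after its values were seen. The last bin, 1990 bases at chr11:70045533-70047522, extends the 3′ untranslated region beyond the annotated end of shorter transcripts, and per base it stood at 0.0713 of the upstream bin. It held 0.308, 0.249, 0.247, 0.24 and 0.305% of *Dlg4* counts in Usp7 WT and 0.51, 0.746, 0.76, 0.641 and 0.774% in Usp7 cKO replicates 1 to 5. Every mutant library was above every control. The last bin went from 5.97 ± 0.841 to 12.3 ± 1.51 CPM (reads in the bin relative to the library total), while the rest of the gene went from 2207 to 1796 CPM. The relative log2 was 1.34 (adjusted p = 3.44e-27, edgeR), and against the rest of the gene the ratio changed by 1.34 ± 0.0841 log2 (SE, limma). The bin before it, which closes at the proximal end, had a relative log2 of -0.12 and was not called. Of 54 other tested bins of *Dlg4* 1 was called, an inner piece of 5383 bases used more (0.40, adjusted p = 0.0265, edgeR). An annotated protein-coding transcript ends at that piece as well. The gene as a whole fell (log2 -0.31 ± 0.052 SE in TPM, adjusted p = 0.00323, limma). Within 5000 bases no other gene stood at 0.5 TPM or more.

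Other long last bins were used more as well. In *Luc7l3*, a partner of U1 snRNP in splicing, the last bin of 3171 bases (chr11:94287890-94291060) held 4.63, 4.43, 4.75, 5.22 and 4.35% of the gene in Usp7 WT and 8.74, 8.25, 6.37, 6.6 and 6.5% in Usp7 cKO. The groups did not overlap, with Usp7 cKO replicates 1 and 2 above the other mutants. The relative log2 was 0.63 (adjusted p = 8.86e-07, edgeR), the bin went from 4.65 to 7.56 CPM, and the gene level had no call (log2 0.09 ± 0.091 SE). The other bins of *Luc7l3*, none of them called, had values between -0.30 and 0.47 in bins 2 to 16, the highest in bin 8, between -0.11 and 0.21 in bins 17 to 23, and between -0.01 and 0.35 in bins 24 to 32.

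In *Acbd6*, an acyl-CoA binding protein, the last bin of 2959 bases (chr1:155688372-155691330) held between 2.97 and 4.08% of the gene in controls and between 4.18 and 6.83% in mutants, with a relative log2 of 0.66 (adjusted p = 0.00041, edgeR). In *Dap3*, a protein of the small mitochondrial ribosome subunit, the last bin of 2832 bases (chr3:88920803-88923634) held 2.81 ± 0.211% and 4.08 ± 0.35% (SD, n = 5 each), with a relative log2 of 0.53 (adjusted p = 0.0011, edgeR). Neither pair of groups overlapped. *Gga2*, a clathrin adaptor of the trans-Golgi network, had 943 bases beyond a boundary that is not an annotated end, at 1.93 ± 0.528% and 4.24 ± 1.07% of the gene, and a relative log2 of 1.12 (adjusted p = 9.10e-06, edgeR). Its counts were low, between 16 and 42 reads a library in the controls and between 36 and 87 in the mutants.

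Among genes of synapses and neuronal membranes, *Kalrn*, a guanine nucleotide exchange factor of dendritic spines, kept its last bin level (23.6 and 24.9 CPM) while the rest of the gene went from 1579 to 1277 CPM. Its share was 1.253, 1.46, 1.53, 1.63 and 1.52% in Usp7 WT and 1.9, 2.05, 1.63, 2.14 and 1.92% in Usp7 cKO. Usp7 cKO replicate 3 lay just below the highest control, and the relative log2 was 0.38 (adjusted p = 0.0013, edgeR). In *Kalrn* 7 of 101 other tested bins were also used more and 1 less, so the last bin was not alone. *Dpp10*, an auxiliary subunit of Kv4 potassium channels, has a last bin of 10671 bases that went from 2.25 ± 0.201 to 3.13 ± 0.324% (relative log2 0.48, adjusted p = 0.0015, edgeR). *Pcdh10*, a protocadherin, went from 2.92 ± 0.0864 to 3.88 ± 0.259% (0.41, adjusted p = 0.0026), and *Cfl1*, the actin-severing cofilin, from 0.406 ± 0.0304 to 0.623 ± 0.106% (0.61, adjusted p = 0.001, edgeR). In these 3 genes the groups did not overlap. The last bin of *Cfl1* also overlaps *Snx32* on the opposite strand, and that of *Pcdh10* overlaps the antisense gene *1700027H10Rik*. Reads of the 2 genes at each place cannot be told apart, since the counting strand is not given in the sources used here. *Snx32* stood at 55.9 ± 5.58 and 57.7 ± 9.4 TPM. *1700027H10Rik*, at a lower level, had no call in TPM.

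**Figure D3:**
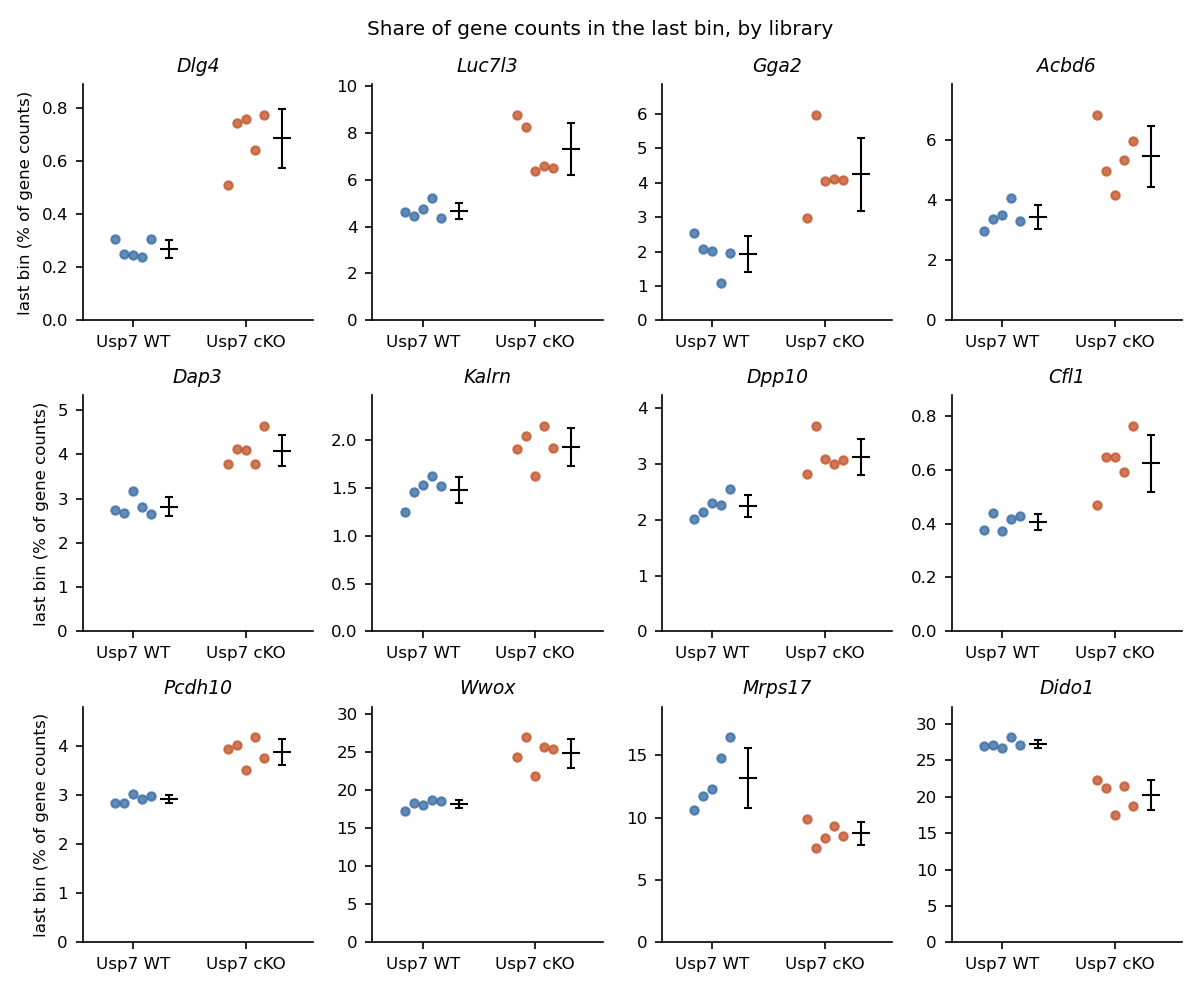
Share of the counts of each gene that fell in its last bin (vertical axes, percent, from 0), by library, for 12 called members. Points are libraries, 5 in each genotype, with mean and SD beside them; *Dlg4* ran from 0.24 to 0.308% in Usp7 WT and from 0.51 to 0.774% in Usp7 cKO, while *Mrps17* and *Dido1* were lower in every Usp7 cKO library.

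*Wwox*, an oxidoreductase with WW domains, was also named after its values were seen. Its last bin of 565 bases (chr8:115352144-115352708) held 17.2, 18.3, 18.1, 18.7 and 18.5% of the gene in Usp7 WT and 24.3, 26.9, 21.8, 25.6 and 25.4% in Usp7 cKO. No libraries overlapped between groups, the relative log2 was 0.45 (adjusted p = 0.0029, edgeR), and the whole gene rose (log2 0.57 ± 0.089 SE in TPM, adjusted p = 0.00218, limma). Along *Wwox* the other tested bins, none of them called, had relative changes below 0 except bin 8, of 3302 bases, at 0.23 and the bin before the last at 0.33. The call was lost where bins under a mean count of 50 were left out (adjusted p = 0.416). *Srsf6*, an SR protein of splicing, had a last bin at 8.04 ± 0.811 and 10.7 ± 1.04% (relative log2 0.41, adjusted p = 0.013, edgeR), and leaving out Usp7 WT replicate 1, Usp7 WT replicate 4 or Usp7 cKO replicate 5 ended its call (adjusted p 0.0623 to 0.187).

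The last bin of *Yjefn3*, of 2 bases, had 2 to 4 reads in each control and 42 to 56 in each mutant. It passed the minimum mean count of 10 only through the mutants, so its relative log2 of 2.97 (adjusted p = 2.02e-11, edgeR) is a description and supports no rank. *Cilp2*, which starts 101 bases downstream on the same strand, went from 6.25 ± 0.656 to 54.5 ± 4.33 TPM (log2 3.03, adjusted p = 2.59e-08, limma). Of the other tested *Yjefn3* bins 3 were used more, all of them directly before the last, and 3 less. Whether reads from *Cilp2* or from transcripts across both genes fell in this bin was not tested.

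Among bins used less, *Dido1* had its last bin lower and an inner bin, which closes at another annotated end, higher. *Gpr45* and *Ttc7*, given below, had such an inner bin as well. Cleavage at these ends was not measured. *Dido1* encodes proteins that carry a PHD finger and that differ by their terminal exons. The last bin, 4620 bases at chr2:180657964-180662583, closes at the distal end and includes coding sequence. It held 26.9, 27.1, 26.7, 28.2 and 27.1% of *Dido1* counts in Usp7 WT and 22.3, 21.2, 17.4, 21.4 and 18.7% in Usp7 cKO. All mutants were below all controls, with a relative log2 of -0.43 (adjusted p = 9.62e-05, edgeR) and a change of -0.57 ± 0.069 log2 against the rest of the gene (SE, limma). The bin went from 24.7 to 16.8 CPM. An inner bin of 2736 bases (chr2:180681073-180683808), where a shorter transcript ends, was used more, by 0.79 (adjusted p = 6.66e-15, edgeR), and went from 6.42 ± 1.05 to 10.2 ± 1.24 CPM. The last bin had 3.14, 4.16, 3.93, 4.85 and 3.58 counts for each count of the inner bin in Usp7 WT and 1.95, 1.64, 1.29, 2.06 and 1.48 in Usp7 cKO. This ratio was lower in every mutant than in every control, and *Dido1* as a gene had no call (log2 -0.16 ± 0.072 SE).

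**Figure D4:**
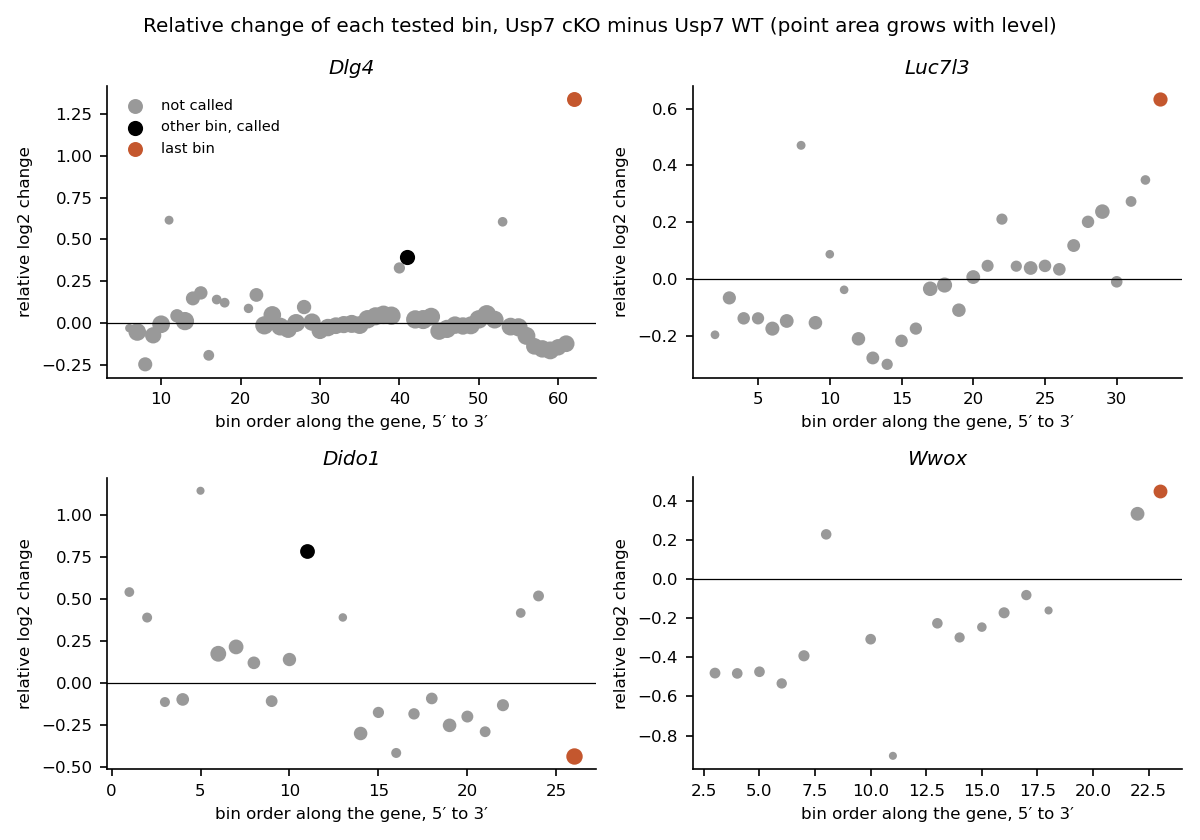
Relative log2 change of every tested bin (vertical axes, Usp7 cKO minus Usp7 WT) in order along *Dlg4*, *Luc7l3*, *Dido1* and *Wwox* (horizontal axes, bin number from 5′ to 3′); point area grows with the summed CPM of both genotypes. In *Dlg4* the last bin stands at 1.34 beside -0.12 for the bin before it, and in *Dido1* the last bin is at -0.43 and the inner bin at 0.79.

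*Mrps17*, another protein of the small mitochondrial ribosome subunit, was the other coding gene whose lower use kept its call in all alternatives. Its last bin of 3681 bases (chr5:129718876-129722556) held 10.6, 11.7, 12.3, 14.8 and 16.4% in Usp7 WT and 9.89, 7.58, 8.39, 9.3 and 8.49% in Usp7 cKO, without overlap. The relative log2 was -0.58 (adjusted p = 0.00036, edgeR), and the gene fell in TPM (log2 -0.30 ± 0.067 SE, adjusted p = 0.015, limma). The noncoding *Gm12992*, named after its values were seen, went from 26.4 ± 4.53 to 10.9 ± 3.3% (relative log2 -1.29, adjusted p = 2.03e-05, edgeR). Its last bin stayed at 0.653 and 0.689 CPM while the rest went from 1.81 to 5.48 CPM, and it overlaps *Srsf4* on the opposite strand.

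The remaining bins used less and named by the rule rested on fewer libraries. *Slc16a3*, a lactate transporter, went from 8.33 ± 1.64 to 3.97 ± 1.26% as the rest of the gene went from 4.45 to 13.6 CPM (relative log2 -1.14, adjusted p = 0.0028, edgeR), and without Usp7 WT replicate 4 the adjusted p was 0.0566. The nearest expressed gene on the opposite strand, *Csnk1d*, lies 881 bases from this bin. *Clasp1*, a microtubule plus-end protein, went from 1.21 ± 0.094 to 0.882 ± 0.0977% (-0.47, adjusted p = 0.012), and leaving out Usp7 WT replicate 2 or either of Usp7 cKO replicates 4 and 5 ended its call (adjusted p 0.0757 to 0.116, edgeR). *Mau2*, part of the cohesin loader, went from 11.3 ± 1.09 to 8.94 ± 0.47% (-0.33, adjusted p = 0.015), and leaving out Usp7 WT replicate 5 or either of Usp7 cKO replicates 3 and 5 ended its call (0.0526 to 0.156, edgeR). In *Slc16a3*, *Clasp1* and *Mau2* the groups did not overlap. In *Gpr45* (-0.53), *Ttc7* (-0.54) and *Ap1g2* (-0.71) the groups overlapped. An inner bin that closes at the annotated end of a processed transcript was used more in *Gpr45* (0.55, adjusted p = 0.0081, edgeR). The same held in *Ttc7* (1.35, adjusted p = 0.00097, edgeR), where that bin had 0.21 and 0.652 CPM. Leaving out 1 library ended the *Gpr45* call for Usp7 WT replicates 1 and 3 and Usp7 cKO replicates 2, 3 and 4 (adjusted p 0.0783 to 0.366, edgeR). It ended the *Ttc7* call for Usp7 WT replicates 2, 4 and 5 and Usp7 cKO replicates 3, 4 and 5 (0.0907 to 0.169). It ended the *Ap1g2* call for Usp7 WT replicates 1, 2 and 3 and Usp7 cKO replicates 3, 4 and 5 (0.0537 to 0.296). With Xist as covariate in place of the labelled sex, *Clasp1*, *Mau2*, *Gpr45*, *Ttc7* and *Ap1g2* also lost their calls (0.338 in *Ttc7*). By DESeq2 *Slc16a3*, *Clasp1*, *Gpr45*, *Ttc7* and *Ap1g2* had no call, and by limma *Gpr45* had none. The *Ttc7* call was also lost without the 2 libraries at odds with their labelled sex and at a minimum mean count of 50, and the *Ap1g2* call with no covariate. The last bin of *Ap1g2* overlaps *Thtpa* on the opposite strand, which stood at 13.0 ± 1.58 TPM in Usp7 WT and 11.4 ± 0.567 in Usp7 cKO.

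The rule also named 5 bins that stand alone, lie over coding sequence and were used more. *Kremen2*, a receptor for Dickkopf proteins, went from 21.4 ± 11.6 to 40.1 ± 5.99% (relative log2 1.101) in a gene that rose from 2.12 to 9.002 TPM. *Zfp64*, a zinc finger protein, went from 4.13 ± 0.799 to 6.68 ± 0.728% (0.70), *Opa3*, a mitochondrial protein, from 0.929 ± 0.386 to 1.94 ± 0.381% (1.08), *Ramp2*, a receptor accessory protein, from 0.515 ± 0.407 to 1.56 ± 0.504% (1.49), and *Chrnb2*, a nicotinic receptor subunit, from 2.37 ± 0.595 to 3.91 ± 1.78% (0.68, SD, n = 5 each). *Kremen2* and *Ramp2* passed the minimum mean count of 10 only through the mutants (mean counts of 8.2 and 69, and of 4.4 and 18.2), so their higher use is a description. The groups were apart in *Zfp64* and *Opa3* alone of these 5. Leaving out 1 library ended the calls of *Kremen2* (Usp7 WT replicates 2 and 4, Usp7 cKO replicate 4; adjusted p 0.0798 to 0.109, edgeR), *Zfp64* (Usp7 WT replicates 1, 3 and 5, Usp7 cKO replicate 2; 0.0788 to 0.087) and *Ramp2* (Usp7 WT replicates 2 and 3, Usp7 cKO replicate 2; 0.0674 to 0.12). It also ended those of *Opa3* (Usp7 WT replicates 2 and 3, Usp7 cKO replicates 2, 3 and 4; 0.0513 to 0.277) and *Chrnb2* (all but Usp7 WT replicate 3 and Usp7 cKO replicate 1; 0.076 to 0.367). With Xist as covariate *Kremen2*, *Zfp64*, *Opa3* and *Chrnb2* lost their calls (0.141 in *Zfp64*), by DESeq2 all 5 did, and by limma *Ramp2*, *Opa3* and *Chrnb2* did. Without the 2 libraries at odds with their labelled sex only *Zfp64* of these 5 kept its call. *Kremen2* lost its call with no filter on low bins, and *Chrnb2* with no covariate. Beside *Kremen2*, *9530082P21Rik*, an antisense gene 1263 bases away, rose (0.946 ± 0.344 to 2.46 ± 0.734 TPM, log2 1.03, adjusted p = 0.0024, limma), and *Paqr4*, 330 bases away on the same strand, stood at 71.6 and 74.2 TPM with no call. The last bin of *Ramp2* lies 1 base from *Vps25* on the same strand, and that of *Chrnb2* overlaps *Adar* on the other. Neither *Vps25* nor *Adar* was called in TPM. Whether reads of these neighbours fell in the bins was not tested.

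Over the 40 calls, the groups did not overlap in share in 28, beside 2.27% of the tested members and 1.65% of all bins tested (0.43% of all bins were called); the 40 were called for a group difference, so nothing is read from this. Of the 40, 13 kept their call in every alternative that gave them a value. These 13 were *Dlg4*, *Yjefn3*, *Luc7l3*, *Gga2*, *Acbd6*, *Cfl1*, *Dap3*, *Kalrn*, *Dpp10* and *Pcdh10*, used more, and *Dido1*, *Mrps17* and *Gm12992*, used less. *Yjefn3* is a member only through Usp7 cKO, so its place among them is a description. None of the 40 changed direction in any alternative. In TPM, 9 of the 40 genes rose, 6 fell and 25 had no call; the 15 called are 37.5% of the 40, beside 20.2% of the genes of all tested members and 13.9% of all genes. An expressed gene lay within 5000 bases of 20 of the 40 bins, and in 7 such a neighbour changed in TPM. Across 7096 genes the change in last bin use and the change in gene level had a Pearson r of -0.0552 and a Spearman coefficient of -0.0116, given as a description, since genes share libraries and are not replicates. In the authors' deposited table, 7424 members had an adjusted p. Of these, 103 were under 0.05, 74 with a log2 above 0 and 29 below. That is a larger share than that of all bins there (0.573%, 1561 of 272512), while by edgeR the 2 shares were nearer. The difference was not tested. These 103 hold 32 of the 40 members called here, 80.0% of the 40 and 31.1% of the 103, and all 40 had the same sign there. Of the 40, limma on the ratio called 27 (67.5%) and DESeq2 against the rest of the gene 17 (42.5%).

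Where a last bin holds most of its gene, the exon test had little room. None of the 426 tested members with at least 50% of their gene's counts was called by edgeR (3 at an unadjusted p under 0.05), while DESeq2 against the rest of the gene called 3 and limma on the ratio of the last bin to the rest called 6, of which 4 were lower. That is 0.704% and 1.41% of the 426, beside 0.463% and 0.701% of all members by the same tests, and the difference between these shares was not tested. Among them was *Bdnf*, the neurotrophin whose transcripts all share their last exon and differ by their 5′ exons. Its last bin held 82.7, 86.2, 84.5, 83.9 and 82.0% of *Bdnf* counts in Usp7 WT and 79.9, 79.8, 76.1, 79.3 and 78.6% in Usp7 cKO. All mutants were below all controls, and the ratio to the rest of the gene changed by -0.49 ± 0.0863 log2 (SE, adjusted p = 0.0024, limma), while edgeR gave -0.06 and an adjusted p of 1. The bin went from 10.2 to 7.21 CPM and the upstream bins stood at 1.958 and 1.950 CPM. *Ihh*, *Wnt2b* and *Ppp1r7* were also lower in ratio (-2.88, -0.56 and -0.24), and *Sp8* and *Pou3f3* higher (0.58 and 0.24).

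A list of genes known for alternative 3′ ends was also read, of which 12 had member bins. *Bdnf*, *Homer1*, *Camk2a*, *Cdc42*, *Ntrk2*, *Ntrk3*, *Gria2*, *Impa1*, *Actb*, *Vegfa* and *Elavl1* were among them, while the last bin of *Usp7*, of 5 bases, was under the minimum with a mean count of 3.1. None of the 12 was called by edgeR or DESeq2, and limma called *Bdnf* alone. At an unadjusted p under 0.05 edgeR had 1. In the authors' deposited table, from a model that is not given, *Bdnf* had a log2 of -0.10 and an adjusted p of 0.0037. By edgeR's relative log2 the largest change in the list was in *Homer1*, while by the ratio to the rest of the gene *Bdnf*, given above, changed more. *Homer1* encodes a postsynaptic scaffold with a short form that ends early in the gene. Its last bin held 1.45, 2.12, 2.1, 2.12 and 2.15% in Usp7 WT and 3.16, 2.37, 2.1, 2.17 and 2.69% in Usp7 cKO, with a relative log2 of 0.33 (adjusted p = 0.704, edgeR) in a gene that fell (log2 -0.84 ± 0.081 SE in TPM, limma). The groups overlapped. The other named members of the list had relative log2 values from -0.06 in *Bdnf* to 0.11 in *Cdc42*, with -0.04 in *Ntrk2*, 0.03 in *Camk2a* and 0.02 in *Gria2*.

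A second measure set each abutting last bin against the bin directly upstream, as a log2 ratio of counts (pseudocount 0.5, limma, adjusted over 84030 abutting pairs of all genes). Of 3803 pairs that end in a member, 5 were higher in Usp7 cKO and 0 lower, 0.131% of them beside 0.188% of all pairs. At an unadjusted p under 0.05 there were 287 higher (7.55%) and 94 lower (2.47%), beside 5.50% and 4.55% of all pairs, and the median log2 was 0.04 beside 0.00 for all pairs. For *Dlg4* the last bin had 0.215 ± 0.0471 counts for each upstream count in Usp7 WT and 0.58 ± 0.0861 in Usp7 cKO (SD, n = 5 each; log2 1.45 ± 0.104 SE, adjusted p = 0.00084). *Yjefn3* (2.35 ± 0.219 SE) and *Cfl1* (0.59 ± 0.0975 SE) were the other pairs called in both measures. The last bin of *Yjefn3* passed the minimum count only through Usp7 cKO, so its pair is a description. *Panx1*, a large-pore channel, had 2.21 ± 0.206 and 3.29 ± 0.369 counts for each upstream count (log2 0.57 ± 0.0949 SE, adjusted p = 0.046), and *Nup155*, a nuclear pore protein, 0.853 ± 0.0371 and 1.16 ± 0.0825 (0.44 ± 0.0702 SE, adjusted p = 0.044, limma). Neither was called against its whole gene, and both were named after their values were seen. The other abutting members called against their whole gene had no call in this measure, among them *Luc7l3* (0.29 ± 0.14 SE) and *Kalrn* (0.14 ± 0.08 SE). *Acbd6*, *Dap3*, *Dpp10*, *Pcdh10*, *Wwox*, *Srsf6* and *Mrps17* had none either. With any 1 library left out 2 to 4 pairs were higher.

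Spliced reads into the terminal exon were another measure. Tandem ends share the intron into their exon, so this measure cannot respond to a choice between them. Of the introns in the deposited clusters, 1090 ended at the 5′ edge of the exon of a member, reaching 608 members, and 1053 could be tested against their cluster (edgeR). None was called, beside 0.117% of all introns. At an unadjusted p under 0.05 there were 16 higher and 20 lower (3.42%, beside 3.52% of all introns), and the smallest adjusted p was 0.108. Without Usp7 WT replicate 5 there was 1 call and without Usp7 cKO replicate 3 there were 2. Only 5 of the 40 called members had such an intron. In *Luc7l3* the most used intron took 66.1 ± 7.66 and 63.0 ± 17.1% of its cluster, in *Pcdh10* 24.1 ± 1.6 and 29.5 ± 4.02%, and in *Gpr45* 38.1 ± 2.15 and 15.4 ± 3.48% on 113 and 70 reads (SD, n = 5 each; adjusted p = 0.542). *Dido1* and *Dlg4* had none.

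The levels of the genes that form 3′ ends were also tested. Of 21 cleavage and polyadenylation factors 0 rose and 0 fell (limma, with 13.9% of 27580 genes called, 9.22% higher and 4.67% lower; at an unadjusted p under 0.05 1 was higher and 2 lower), with a median log2 of 0.004 beside 0.06 for all genes. The smallest p values were those of *Cpsf2*, a subunit of the cleavage complex (27.7 and 24.3 TPM, log2 -0.18 ± 0.063 SE, adjusted p = 0.09), *Papolg*, a poly(A) polymerase (-0.21 ± 0.082 SE), *Cpsf1* (0.18 ± 0.074 SE) and *Ssu72* (-0.12 ± 0.056 SE). After TPM was rescaled by median ratios, which took the median of all genes from 0.06 to 0.01, 3 fell, beside 10.5% of all genes that fell on that scale (4.67% before it). *Nudt21*, *Cpsf6* and *Pcf11*, known for shifting site choice, were within 0.07 of 0.

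Of 25 regulators of site choice 2 rose and 4 fell, beside 9.22% of all genes that rose and 4.67% that fell, with a median log2 of -0.03. None rose when control replicate 1 or 2, or mutant replicate 1, 3 or 5, was left out. *Khdrbs3*, a STAR family RNA-binding protein, fell from 158 ± 11.1 to 124 ± 12.3 TPM (log2 -0.35 ± 0.07 SE, adjusted p = 0.0089, limma). *Nova1*, a neuronal splicing and site choice regulator, fell from 19.8 ± 1.3 to 16.2 ± 0.733 TPM (-0.28 ± 0.064 SE, adjusted p = 0.016), and *Elavl2*, a neuronal member of the Hu family, from 27.5 ± 1.99 to 23.1 ± 0.844 TPM (-0.25 ± 0.059 SE, adjusted p = 0.02, or 0.0596 without Usp7 cKO replicate 4). *Hnrnph1* rose from 48.5 ± 3.78 to 58.7 ± 5.08 TPM (0.27 ± 0.069 SE, adjusted p = 0.026), and leaving out any of Usp7 WT replicates 1, 2 and 4 and Usp7 cKO replicates 1, 3 and 5 ended that call (up to 0.0691). *Ptbp1*, a splicing repressor, rose from 18.2 ± 1.55 to 23.5 ± 3.9 TPM (0.35 ± 0.096 SE, adjusted p = 0.0369), and *Hnrnpc* fell from 71.6 ± 7.26 to 59.2 ± 0.916 TPM (-0.27 ± 0.068 SE, adjusted p = 0.0275, limma). These calls were lost in 8 and 7 of 14 alternatives. After rescaling, 2 rose and 10 fell, beside 9.80% of all genes that rose and 10.5% that fell on that scale. All 6 glutamatergic neuron markers fell beside them and 1 of 6 GABAergic markers did, and the part of that shift in these levels was not tested.

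**Figure D5:**
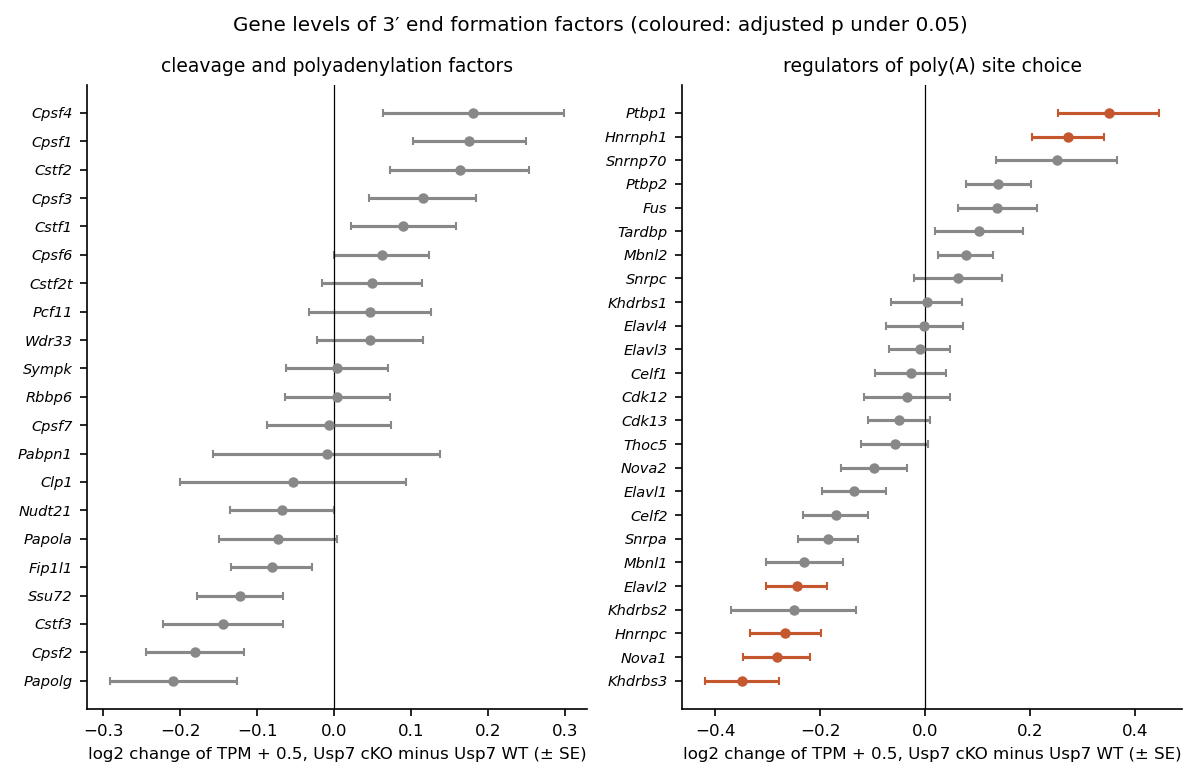
Change in gene level, log2 of TPM + 0.5, Usp7 cKO minus Usp7 WT with its SE (horizontal axes), for 21 cleavage and polyadenylation factors and 25 regulators of site choice (vertical axes). Coloured points passed an adjusted p of 0.05 (limma): 0 in the first list and 6 in the second, from *Khdrbs3* at -0.35 to *Ptbp1* at 0.35.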

How the data were processed

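Total RNA of 10 cortices was sequenced. Per the submitters' processing notes, STAR 2.7.9a, SAMtools 1.10, featureCounts and GRCm38 were used; the counting strand is not given in the sources used here. The authors deposited raw counts per exon bin and per intron cluster, TPM per gene, and a table of bin usage with a log2 fold change and adjusted p-value from a model that is not given in the sources used here. The intron counts of Usp7 WT replicate 1 were all even and were halved. Of the TPM lines 287 were repeats and were dropped.

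Bin and intron use were tested on the deposited counts with edgeR 4.0.16 (quasi-likelihood fit, TMM scaling, bins with a mean count of at least 10, introns of at least 5, labelled sex as covariate). The log2 ratios of bins and log2(TPM + 0.5), with genes under a mean TPM of 0.5 left out, were tested with limma 3.58.1, so fold changes of low genes are understated. DESeq2 1.42.0 was an alternative. P-values were adjusted by Benjamini-Hochberg over all features of each test, and single values were compared by exact permutation. The exon fit was tested on simulated data with known changes, where it recovered 5 of 50 bins changed by 1.25-fold, 28 of 50 at 1.5-fold, 41 of 50 at 2-fold and 46 of 50 at 3-fold. Simulated counts were drawn independently, with the same variance setting for every bin and no effect of sex or litter. Real bins can vary more, so these rates need not hold for them. End sequences came from GENCODE M21 transcripts.

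The members and the gene lists were chosen with earlier results of these data known. The text names, for each class (abutting or standing alone) and direction, up to 7 called members with a mean share of at least 1%, by adjusted p, and the list of alternative ends; others were named after their values were seen, and some members of that list are not reported here. Bin counts summed to 42628526 to 51797145 per library; the labels give separate animals.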

Additional observations from a re-analysis of the deposited data

Results flagged for a closer look

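In 7 of 110 groups of 5 libraries, 1 library's share lay far from the other 4 (gap over range above 0.71), where chance gives about 1 in 20. The *Dido1* last bin held 28.2% in Usp7 WT replicate 4, beside 26.7 to 27.1% in the other controls. *Homer1* stood at 1.45% in Usp7 WT replicate 1, beside 2.10 to 2.15%. *Gria2* was at 2.15% in the same library, beside 2.63 to 2.81%. *Actb* was at 1.56% in Usp7 WT replicate 5, beside 1.14 to 1.26%. *Tubgcp6* was at 2.14% in Usp7 WT replicate 3, beside 1.26 to 1.39%. *Hp1bp3* was at 2.40% in Usp7 cKO replicate 1, beside 1.98 to 2.08% in the other mutants. *Gm49601* was at 11.7% in Usp7 cKO replicate 3, beside 7.63 to 8.50%.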

How the results depend on the processing

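Of the results with a test for a named gene, 754 kept their direction and side of the threshold, 217 lost the call and 1 gained it. Members used more (30) numbered 19 with a minimum mean count of 50, 18 with Xist as covariate, 17 without the 2 libraries whose sex transcripts went against the label, and 17 to 26 with a library left out (17 without Usp7 WT replicate 1, 19 without Usp7 cKO replicate 2, 18 without Usp7 cKO replicate 5). Members used less (10) numbered 5 with the minimum of 50, 5 with Xist, 18 by limma, and 5 to 12 with a library left out (5 without Usp7 cKO replicate 4 or 5). Pairs higher (5) numbered 2 without a covariate, 2 without the 2 libraries and 2 to 4 with a library left out; pairs lower (0) numbered 1 with a pseudocount of 2, 2 with the minimum of 50 and 0 to 2 with a library left out. Introns called ranged from 0 to 2. The summed share difference ranged from -0.128 to 0.210, with -0.0666 without Usp7 WT replicate 1, -0.128 without Usp7 cKO replicate 1 and -0.0167 without Usp7 cKO replicate 2. Rescaled TPM, under which 10.5% of all genes fell in place of 4.67%, gave 3 cleavage factors and 10 regulators that fell, against 0 to 1 and 2 to 4 with a library left out; regulators that rose numbered 1 without a filter and 0 to 2 with a library left out. The cause was not tested for any of these. No label pairs animals across genotypes. A block of labelled sex by title number, which is balanced between genotypes, gave 33 members used more and 11 less; extended after seeing the data to the other tests, it gave 2 pairs higher and 1 lower, 0 introns, and the same counts of cleavage factors and regulators. Bins of few reads limit what could be detected.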
